A study of Rattus norvegicus with 8 samples.

Results

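The endoplasmic reticulum is the main calcium store of non-excitable cells, and 10 genes of this store were followed in AFCs, the cells that build the fibrous outer layer (annulus fibrosus) around the disc between vertebrae. They were named as a list of gene symbols, with earlier results of these data known, and made up 10 of the 31699 rows of the deposited gene table. They comprise the calcium pumps Atp2a2 and Atp2a3, the release channels Itpr1, Itpr2 and Itpr3, the genes of store-operated entry Stim1, Stim2 and Orai1, and the luminal buffers Casq2 and Calr. AFCs of Sprague Dawley rats were infected for 24 h at an MOI of 20 with a control lentivirus (Lv-Ctrl, pLVX-shRNA-Puro) or with the same vector holding an shRNA to Piezo1 (Lv-Piezo1), a calcium-permeable channel that opens under membrane tension. Both groups were then exposed to cyclic mechanical stretch (CMS) at 20% elongation and 0.5 Hz for 36 h, a load used to induce apoptosis, and unstretched cells were not analysed here. Per the study's methods, AF tissue of 8 rats was pooled for each isolation and AFCs of the third passage were used, so each sample averages several animals. RNA of 4 samples labelled Lv-Ctrl and 4 samples labelled Lv-Piezo1 was sequenced, and the values are TPM, a transcript level corrected for length and scaled to 1 common total, from which the depth of a library cannot be read.

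SERCA pumps, encoded by the Atp2a genes, move calcium from the cytosol into the lumen of the store against its gradient. Inositol trisphosphate (IP3), made by phospholipase C, opens the IP3 receptors encoded by Itpr1, Itpr2 and Itpr3 and lets calcium out. When the lumen empties, the membrane sensors Stim1 and Stim2 cluster and open the plasma membrane channel formed by Orai1, which refills the store, while Calr and Casq2 bind calcium inside the lumen.

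Piezo1 (ENSRNOG00000056786), the target of the shRNA, was not lower in the samples that should lack it. Its level was 31.1, 33.0, 26.7 and 29.5 TPM in Lv-Ctrl-labelled replicates 1 to 4 and 38.1, 37.7, 40.2 and 41.4 TPM in Lv-Piezo1-labelled replicates 1 to 4. The groups did not overlap, and the log2 fold change was 0.38 (SE 0.06, limma adjusted p = 8.6e-04). The targeted transcript therefore went against the label. Samples are called only as labelled, and each difference is Lv-Piezo1-labelled minus Lv-Ctrl-labelled. Across the 13103 genes with a mean of at least 1 TPM, the median log2 fold change was 0.14, and median-ratio scaling of the samples brought it to -0.0046. A member near 0.14 thus moved with the bulk of the genes. Of 13 annulus fibrosus and fibroblast markers 12 were tested, with Col1a1 at 3282 ± 137 TPM and Col1a2 at 2316 ± 141 TPM in Lv-Ctrl-labelled samples (SD, n = 4 each), collagens that fibroblasts of other tissues also make. In the same samples Scx stood at 30.1 ± 5.05 TPM and Mkx at 25.4 ± 2.89 TPM (SD, n = 4 each). The tendon marker Tnmd lay below a mean of 1 TPM. Endothelial markers summed to at most 0.62 TPM in any sample, and 6 of 10 chondrocyte and nucleus pulposus markers with a row, Col2a1 among them, lay below a mean of 1 TPM. The others were Acan, Hapln1, Sox9 and Comp, with Acan the highest.

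The promoters of 3 members are shown because Atp2a2 and Casq2 were the members that passed the fold change threshold, and because the Calr promoter holds a sequence element that the others lack. All 10 members matched a RefSeq entry, with 250 bases before and 50 after the start of the gene, on assembly GRCr8. The deposited table names no build, so these positions belong to RefSeq alone. The first 250 bases are printed 5′ to 3′, with GC boxes (GGGCGG on either strand) and the endoplasmic reticulum stress element (ERSE, CCAAT and CCACG with 9 bases between them, on either strand) in capitals.
Atp2a2 (chr12:39733269-39733518, + strand): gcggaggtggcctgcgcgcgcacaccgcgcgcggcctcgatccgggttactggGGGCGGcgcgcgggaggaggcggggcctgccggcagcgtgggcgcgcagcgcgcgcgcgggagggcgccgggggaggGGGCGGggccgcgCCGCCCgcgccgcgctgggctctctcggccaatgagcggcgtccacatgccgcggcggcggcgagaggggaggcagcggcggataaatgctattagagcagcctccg
Casq2 (chr2:192214306-192214555, + strand): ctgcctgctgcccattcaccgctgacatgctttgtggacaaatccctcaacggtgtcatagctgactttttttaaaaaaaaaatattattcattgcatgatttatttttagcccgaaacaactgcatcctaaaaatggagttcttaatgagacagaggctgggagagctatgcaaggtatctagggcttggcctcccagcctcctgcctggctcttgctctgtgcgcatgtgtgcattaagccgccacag
Calr (chr19:40213117-40213366, + strand): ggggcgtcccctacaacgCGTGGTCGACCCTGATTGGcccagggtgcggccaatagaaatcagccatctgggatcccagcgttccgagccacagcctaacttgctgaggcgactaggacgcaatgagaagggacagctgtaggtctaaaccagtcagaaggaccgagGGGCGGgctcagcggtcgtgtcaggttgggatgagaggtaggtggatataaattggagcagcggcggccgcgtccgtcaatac
The Atp2a2 window of 300 bases was 79.0% G and C with 3 GC boxes, the highest G and C content among the 10 members. The Casq2 window was 47.7% G and C, the lowest among the members and below the median of 51.7% over 33469 promoters, and it held no GC box. GC boxes were found in 8 of the 10 members and in 33.1% of all promoters. The ERSE is known as a binding element of the transcription factor ATF6 in genes of luminal chaperones. It was found in 1 of the 10 members, at base 19 of the Calr window on the strand opposite to the gene, and in 0.0657% of all promoters. The CArG box, the element of serum response factor in many smooth muscle genes, had a match in 0 of the 10 members and in 1.64% of all promoters.

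Of the 10 members, 9 were tested, and Atp2a3 fell below the limit of 1 TPM. Atp2a2 fell and Casq2 rose past the threshold of the study, an adjusted p below 0.05 with a log2 fold change of at least 1 in size, which 7.67% of all tested genes passed, 4.91% as rises and 2.76% as falls. At an adjusted p below 0.05 alone, Itpr1, Itpr3, Stim1, Orai1 and Casq2 rose and Atp2a2 fell, while Itpr2, Stim2 and Calr did not pass. That rule was passed by 58.2% of all tested genes, 41.9% upward and 16.3% downward, so 6 of 9 members is near the background. The median log2 fold change of the 9 members was 0.26, against 0.14 for all tested genes. The groups did not overlap for Atp2a2, Itpr1, Itpr3 and Casq2, which is 4 of 9 members, against 54.2% of all tested genes.

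**Figure D1:**
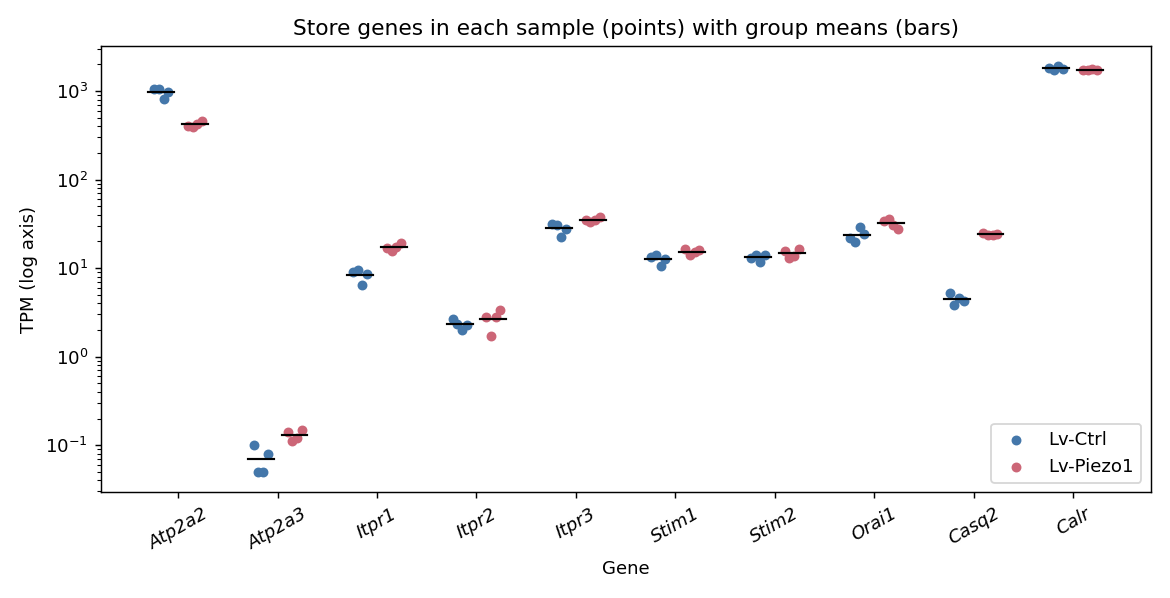
TPM of the 10 store genes on a log axis, with 1 point per sample and a bar at the mean of the 4 samples of each group (blue, Lv-Ctrl; red, Lv-Piezo1). The groups stand clearly apart for Atp2a2 (976 against 421 TPM), Itpr1 (8.35 against 17.2 TPM) and Casq2 (4.46 against 24.1 TPM), while Calr lies between 1708 and 1905 TPM in all samples, and Atp2a3 lies at or below 0.15 TPM.

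Among the pumps, the level of Atp2a2 (ENSRNOG00000001285), the widely expressed SERCA2 pump, was 1062, 1057, 809 and 975 TPM in Lv-Ctrl-labelled replicates 1 to 4. In Lv-Piezo1-labelled replicates 1 to 4 it was 405, 388, 427 and 462 TPM. The lowest sample labelled Lv-Ctrl stood well above the highest sample labelled Lv-Piezo1. The mean went from 976 ± 118 to 421 ± 31.8 TPM (SD, n = 4 each), 2.32 times lower, with a log2 fold change of -1.21 (95% interval -1.41 to -1.003, limma adjusted p = 4.7e-06). The log2 fold change stayed between -1.37 and -1.16 over 16 alternative fits. Atp2a2 ranked 172 among the tested genes by level in Lv-Ctrl-labelled samples and 353 in Lv-Piezo1-labelled samples. It fell by 555.1 TPM, which was the largest difference in TPM among the members.

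Atp2a3 (ENSRNOG00000017912), the SERCA3 pump known from blood and epithelial cells, had 0.05 to 0.10 TPM in Lv-Ctrl-labelled samples and 0.11 to 0.15 TPM in Lv-Piezo1-labelled samples. These values are close to the 2 decimals of the table and were left out of the main fit across genes by the limit of 1 TPM. Without that limit the log2 fold change of Atp2a3 was 0.08 (limma adjusted p = 0.047). Its share of the summed TPM of both pumps was 0.00713% ± 0.0021 in Lv-Ctrl-labelled samples and 0.0309% ± 0.0032 in Lv-Piezo1-labelled samples (SD, n = 4 each). The pump transcripts were thus almost entirely Atp2a2 in all 8 samples. Among the other pump genes and pump regulators set down in a list of 8, 3 were tested, and 1 fell, or 2 without Lv-Ctrl replicate 3 and after either scaling. Of all tested genes 16.3% fell on the deposited values. Tmx1, a thioredoxin-like membrane protein that acts on SERCA, fell from 102 ± 7.13 to 80.9 ± 5.01 TPM, with a log2 fold change of -0.32 (limma adjusted p = 0.0015). Canx, a membrane chaperone, had a log2 fold change of -0.14 (limma adjusted p = 0.16), and Atp2c1, the pump of the Golgi, one of -0.04 (limma adjusted p = 0.74). The muscle inhibitor Sln lay below a mean of 1 TPM, and Strit1, an activator, was listed at 0.

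Among the release channels, the level of Itpr1 (ENSRNOG00000007104), the IP3 receptor best known from neurons and smooth muscle, was 8.96, 9.51, 6.40 and 8.51 TPM in Lv-Ctrl-labelled replicates 1 to 4. It was 16.8, 15.6, 17.2 and 19.2 TPM in Lv-Piezo1-labelled replicates 1 to 4. All samples labelled Lv-Piezo1 were higher, by 2.06 times in the mean, with a log2 fold change of 0.97 (95% interval 0.72 to 1.22, limma adjusted p = 7.4e-05). This is just below the fold change threshold on the log2(TPM + 1) scale. Itpr1 passed the threshold without Lv-Ctrl replicate 1 (1.00), without Lv-Ctrl replicate 2 (1.03), without Lv-Piezo1 replicate 2 (1.01) and with a pseudocount of 0.1 (1.04).

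Itpr3 (ENSRNOG00000052795), a subtype common in non-excitable cells, had the highest level of the 3 in every sample. It measured 31.3, 30.8, 22.6 and 27.5 TPM in Lv-Ctrl-labelled replicates 1 to 4 and 35.0, 33.1, 35.3 and 38.0 TPM in Lv-Piezo1-labelled replicates 1 to 4. The groups did not overlap, and Itpr3 rose with a log2 fold change of 0.33 (SE 0.10, limma adjusted p = 0.016, 0.011 to 0.078 over the alternatives). This call was lost after median-ratio scaling (0.17, limma adjusted p = 0.078) and quantile normalization (0.21, limma adjusted p = 0.059). Itpr2 (ENSRNOG00000001804), a subtype of high IP3 affinity, had 1.99 to 2.64 TPM in Lv-Ctrl-labelled samples and 1.73 to 3.33 TPM in Lv-Piezo1-labelled samples. The samples labelled Lv-Piezo1 held both the lowest and the highest value of Itpr2, and its log2 fold change was 0.13 (95% interval -0.20 to 0.46, limma adjusted p = 0.48).

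The makeup of the IP3 receptor transcripts was compared within samples, where the scaling of a sample cancels. Itpr3 made up 73.0%, 72.2%, 72.9% and 71.9% of the summed TPM of the 3 genes in Lv-Ctrl-labelled replicates 1 to 4, and 64.1%, 65.7%, 63.9% and 62.8% in Lv-Piezo1-labelled replicates 1 to 4. The groups did not overlap, and the share differed by -8.37 percentage points (exact two-sided permutation test, p = 0.029, adjusted p = 0.048 over 5 ratios). With 4 samples in each group this test cannot give a p below 0.029. It also treats the samples as independent, although both groups appear to come from the same isolations. The Atp2a3 share of the pump transcripts, which rests on values near the limit of 2 decimals, also reached p = 0.029 by this permutation test. Had that ratio not separated, the adjusted p of 0.048 would have been higher. The share of Itpr1 was 21.5% ± 0.85 and 31.1% ± 0.413, and that of Itpr2 6.01% ± 0.378 and 4.79% ± 0.922 (SD, n = 4 each). The summed TPM of the 3 receptors went from 38.7 ± 5.58 to 55.2 ± 4.17 TPM (SD, n = 4 each).

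The main pump, Atp2a2, fell while Itpr1 rose under each scaling, and both sums were set against each other within samples. The summed TPM of both pumps was 24.8, 24.8, 26.1 and 25.4 times that of the IP3 receptors in Lv-Ctrl-labelled replicates 1 to 4, and 7.41, 7.71, 7.73 and 7.63 times in Lv-Piezo1-labelled replicates 1 to 4. This ratio varied little within a group, although the TPM of its parts did. Its log2 value was 4.66 ± 0.0366 and 2.93 ± 0.0275 (SD, n = 4 each), a difference of -1.73 (exact two-sided permutation test, p = 0.029, adjusted p = 0.048 over 5 ratios). The difference lay between -1.74 and -1.71 when each sample was left out in turn. Atp2a2 fell and the summed IP3 receptors rose without overlap, so the separation of this ratio was fixed in advance. Its p restates the changes of its parts and adds no support to them. The adjusted p depends on the Atp2a3 share as described above. Here too the permutation test leaves out that both groups appear to share isolations. These are transcript levels, and neither the proteins nor the calcium content of the store was measured in this table.

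**Figure D2:**
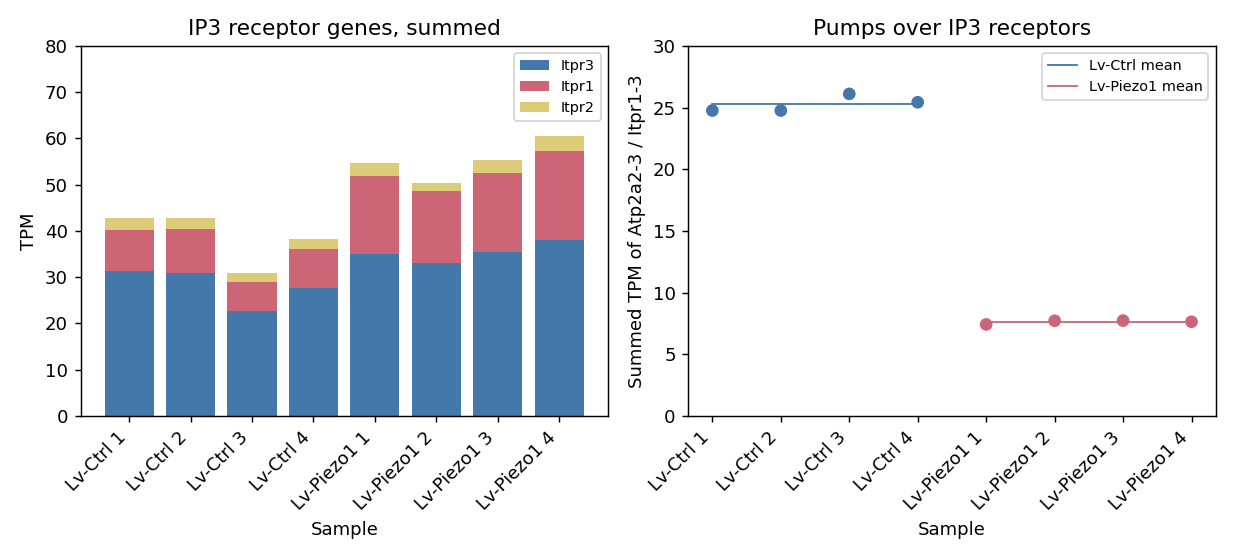
Left, TPM of Itpr3, Itpr1 and Itpr2 stacked in each sample; right, the summed TPM of Atp2a2 and Atp2a3 over that of the 3 IP3 receptor genes in each sample, with lines at the group means. The stacks are taller in Lv-Piezo1-labelled samples (50.4 to 60.6 TPM against 31.0 to 42.9 TPM), and the ratio lies near 25.3 in Lv-Ctrl-labelled samples and near 7.62 in Lv-Piezo1-labelled samples.

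Among the genes of store-operated entry, Orai1 (ENSRNOG00000001336), the pore of the channel, had 21.8, 19.9, 28.8 and 24.4 TPM in Lv-Ctrl-labelled replicates 1 to 4 and 33.9, 36.2, 30.7 and 27.5 TPM in Lv-Piezo1-labelled replicates 1 to 4. The groups overlapped, since Lv-Ctrl replicate 3 lay above Lv-Piezo1 replicate 4. Orai1 rose with a log2 fold change of 0.43 (SE 0.12, limma adjusted p = 0.012, 0.0031 to 0.14 over the alternatives). The call was lost after median-ratio scaling (0.27, limma adjusted p = 0.14) and quantile normalization (0.30, limma adjusted p = 0.080).

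Stim1 (ENSRNOG00000020425), the sensor that answers to strong emptying of the store, had 13.2, 14.1, 10.7 and 12.6 TPM in Lv-Ctrl-labelled replicates 1 to 4 and 16.3, 13.9, 15.3 and 16.0 TPM in Lv-Piezo1-labelled replicates 1 to 4. The groups overlapped at Lv-Ctrl replicate 2 and Lv-Piezo1 replicate 2. Stim1 rose with a log2 fold change of 0.26 (SE 0.08, limma adjusted p = 0.024, 0.015 to 0.28 over the alternatives). The adjusted p from limma was 0.19 with median-ratio scaling, against 0.28 with quantile normalization. It was 0.053 without Lv-Ctrl replicate 4, 0.069 without Lv-Piezo1 replicate 1, 0.056 without Lv-Piezo1 replicate 3 and 0.062 without Lv-Piezo1 replicate 4.

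Stim2 (ENSRNOG00000002956), the more sensitive sensor, had 11.9 to 14.2 TPM in Lv-Ctrl-labelled samples and 12.9 to 16.4 TPM in Lv-Piezo1-labelled samples. Its log2 fold change of 0.14 was close to the median of all genes (95% interval -0.06 to 0.33, limma adjusted p = 0.20). Stim2 made up 51.2% ± 1.55 of the summed TPM of both sensors in Lv-Ctrl-labelled samples and 48.8% ± 1.44 in Lv-Piezo1-labelled samples (SD, n = 4 each), and the groups overlapped (exact two-sided permutation test, p = 0.086, adjusted p = 0.11 over 5 ratios). The log2 ratio of Orai1 to the sum of both sensors was -0.14 ± 0.363 and 0.09 ± 0.274 (SD, n = 4 each), a difference within the spread of the samples (exact two-sided permutation test, p = 0.34, adjusted p = 0.34 over 5 ratios). This difference was 0.23, and it was 0.39 without Lv-Ctrl replicate 3, 0.10 without Lv-Ctrl replicate 2 and 0.11 without Lv-Piezo1 replicate 2.

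Lv-Ctrl replicate 3 had the lowest value of its group in 6 of the 10 members, among them Atp2a2 and all IP3 receptors, and the highest in 2, Orai1 and Calr. In Atp2a3 it shared the lowest value with Lv-Ctrl replicate 2. Its median-ratio factor, the median over genes of its TPM divided by the geometric mean of all samples, was 0.899, against 0.947 to 0.972 in the other samples labelled Lv-Ctrl and 1.04 to 1.09 in Lv-Piezo1-labelled samples. Without this replicate the log2 fold change was -1.29 for Atp2a2, 0.86 for Itpr1, 0.24 for Itpr3, 0.19 for Stim1 and 0.52 for Orai1, and each kept an adjusted p below 0.05 from limma.

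Among the luminal buffers, Casq2 (ENSRNOG00000016243), calsequestrin 2, which binds calcium in large amounts in the sarcoplasmic reticulum of cardiac and smooth muscle, rose the most of all members. Its level was 5.19, 3.84, 4.56 and 4.26 TPM in Lv-Ctrl-labelled replicates 1 to 4 and 24.9, 23.8, 23.8 and 23.99 TPM in Lv-Piezo1-labelled replicates 1 to 4. Every sample labelled Lv-Piezo1 stood far above the samples labelled Lv-Ctrl, at 5.41 times in the mean. The log2 fold change was 2.21 (95% interval 2.04 to 2.38, limma adjusted p = 2.9e-08), rank 162 of the 13103 tested genes by the size of the change. It stayed between 2.03 and 2.42 over 16 alternative fits. In the order of levels, Casq2 stood below Itpr1 in Lv-Ctrl-labelled samples and above it in Lv-Piezo1-labelled samples, without overlap in either group.

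Smooth muscle markers moved with Casq2. All 12 of 12 such markers rose at an adjusted p below 0.05 from limma, 9 of them past the fold change threshold, against 41.9% and 4.91% of all tested genes. Of these, 11 of 12 rose under median-ratio scaling as well as quantile normalization, with 9 and 8 past the fold change threshold. The list was chosen with earlier results of these data known, so its counts describe the markers and are no independent test. Their summed level was 780 to 884 TPM in Lv-Ctrl-labelled samples and 5306 to 5410 TPM in Lv-Piezo1-labelled samples, with 0 of 12 listed at 0. Acta2, smooth muscle actin, went from 51.2 ± 2.27 to 1344 ± 40.5 TPM and Myh11, smooth muscle myosin, from 1.80 ± 0.219 to 47.9 ± 1.31 TPM (SD, n = 4 each). The part of these cells or of this gene programme in the Casq2 difference was not tested, and in bulk RNA more cells of a type and more RNA per cell cannot be told apart.

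Of 26 skeletal and cardiac muscle markers, 24 were in the table and 14 of these lay below a mean of 1 TPM, among them Ryr1, Ryr2, Myh6 and Myh7, with Myod1 and Myog listed at 0. Their summed level was 26.7 to 80.6 TPM in Lv-Ctrl-labelled samples and 41.6 to 45.7 TPM in Lv-Piezo1-labelled samples. The highest sum belonged to Lv-Ctrl replicate 2, which had 14.0 TPM of Ckm, muscle creatine kinase, against 1.31 to 1.93 TPM in the other samples labelled Lv-Ctrl, a gene chosen after its values were seen. Casq2 had its lowest value, 3.84 TPM, in that sample. Whether muscle RNA contributed to the Casq2 values was not tested. By the rule for named genes, Tnnt3 had 8.95 ± 2.95 and 10.8 ± 0.685 TPM and Tnnc1 rose from 6.89 ± 1.13 to 10.6 ± 0.977 TPM (SD, n = 4 each). In the whole list 2 of 10 tested genes rose and 2 fell at an adjusted p below 0.05, against 41.9% and 16.3% of all tested genes. Without Lv-Ctrl replicate 2, 4 rose and 2 fell. Casq1, the calsequestrin of skeletal muscle, rose from 3.65 ± 0.366 to 6.90 ± 1.04 TPM (SD, n = 4 each), with a log2 fold change of 0.76 (limma adjusted p = 2.1e-04).

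Calr (ENSRNOG00000003029), calreticulin, the main luminal buffer and a chaperone, had the highest level of the members. It measured 1801, 1746, 1905 and 1783 TPM in Lv-Ctrl-labelled replicates 1 to 4 and 1731, 1747, 1771 and 1708 TPM in Lv-Piezo1-labelled replicates 1 to 4. The groups overlapped, and the log2 fold change was -0.06 (95% interval -0.13 to 0.02, limma adjusted p = 0.17, 0.0076 to 0.97 over the alternatives). Relative to the median of all genes this was -0.20 on the log2 scale. After median-ratio scaling the change of Calr was -0.22 (limma adjusted p = 0.0076), without mitochondrially encoded genes it was -0.08 (limma adjusted p = 0.049), and after quantile normalization it was -0.0011 (limma adjusted p = 0.97). Casq2 made up little beside it, with 0.247 ± 0.0291 TPM for each 100 TPM of Calr in Lv-Ctrl-labelled samples and 1.39 ± 0.0429 TPM in Lv-Piezo1-labelled samples (SD, n = 4 each). The summed TPM of both buffers was 1813 ± 68.5 and 1763 ± 26.5 TPM (SD, n = 4 each), with overlap between the groups.

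In the samples labelled Lv-Ctrl the order of mean levels, per length, was Calr, Atp2a2, Itpr3, Orai1, Stim2, Stim1, Itpr1, Casq2, Itpr2 and Atp2a3. The ranges of Itpr3 and Orai1 overlapped, as did those of Stim2 and Stim1, and all other neighbours were separate in the 4 samples. In the samples labelled Lv-Piezo1 the order was Calr, Atp2a2, Itpr3, Orai1, Casq2, Itpr1, Stim1, Stim2, Itpr2 and Atp2a3. There the ranges of Itpr3 and Orai1, of Itpr1 and Stim1, and of Stim1 and Stim2 overlapped.

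**Figure D3:**
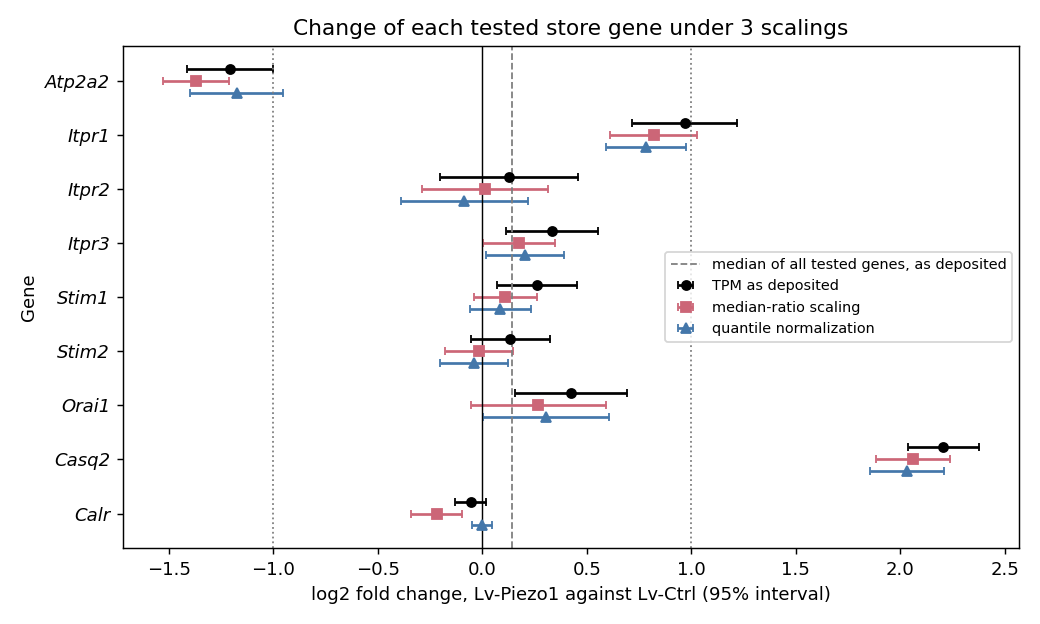
log2 fold change of the 9 tested members with 95% intervals from limma, on the TPM as deposited (black), with median-ratio scaling (red) and with quantile normalization (blue); the dashed line marks the median of all tested genes on the deposited values and the dotted lines the fold change threshold. Atp2a2 (-1.21), Itpr1 (0.97) and Casq2 (2.21) keep intervals away from 0 under each scaling, whereas the intervals of Stim1 and Orai1 reach 0 after median-ratio scaling.

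The rest of the store pathway was described with 8 lists holding 120 genes in all, of which 95 were tested. At an adjusted p below 0.05, 42 of these rose and 13 fell, against 41.9% and 16.3% of all tested genes, and their median log2 fold change of 0.13 was near that of all genes. Of the 95, 4 passed the fold change threshold, Bok, Irag1, Septin4 and Tmem178a, against 7.67% of all tested genes. After median-ratio scaling 28 rose and 30 fell, so the balance of directions in these lists depended on the scaling, while the same number of genes, 3 higher and 1 lower, passed the fold change threshold.

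Proteins that bind the IP3 receptors included the largest rises. Bok, a BCL2 family member that binds IP3 receptors, had 5.28 ± 1.21 TPM in Lv-Ctrl-labelled samples and 22.02 ± 1.01 TPM in Lv-Piezo1-labelled samples (SD, n = 4 each), with a log2 fold change of 1.89 (limma adjusted p = 1.7e-06). Irag1, a substrate of cGMP-dependent kinase that restrains IP3 receptors in smooth muscle, rose from 7.20 ± 0.747 to 23.9 ± 1.41 TPM (SD, n = 4 each), with a log2 fold change of 1.60 (limma adjusted p = 2.3e-07). In the whole list of IP3 receptor partners, 10 of 16 tested genes rose and 0 fell by limma. For this and each list that follows, the shares over all tested genes are 41.9% rising and 16.3% falling. Without Lv-Ctrl replicate 3 10 rose and 2 fell, and after median-ratio scaling 8 rose and 3 fell.

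Of the phospholipase C genes and the Gq subunits that activate them, 10 were tested, of which 5 rose and 1 fell, in the same numbers after both scalings. Gna11, a Gq subunit, was among the rises, and Plcb1 was the fall. Plcg1, a phospholipase C acting below receptor tyrosine kinases, rose from 40.2 ± 2.46 to 50.8 ± 1.76 TPM (SD, n = 4 each), and Plcd1 had 46.2 ± 2.76 and 48.9 ± 1.00 TPM and did not pass. Among other release and leak channels 2 of 10 rose and 3 fell, and after median-ratio scaling 1 rose and 5 fell. Tmbim6, a channel-like protein that guards against stress, rose from 683 ± 26.3 to 802 ± 20.5 TPM, and Tmco1, a channel that vents an overfull store, fell from 213 ± 5.01 to 164 ± 8.15 TPM (SD, n = 4 each). The call of Tmbim6 was lost after median-ratio scaling (log2 fold change 0.07, limma adjusted p = 0.074). Ryr1 and Ryr2, the ryanodine receptors of muscle, lay below a mean of 1 TPM.

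In the list of store-operated entry partners 6 of 14 tested genes rose and 1 fell. The fall was that of Tmem178a, a membrane protein of the store that binds Stim1 and restrains entry, from 9.82 ± 0.57 to 1.22 ± 0.452 TPM (SD, n = 4 each), with a log2 fold change of -2.31 (limma adjusted p = 1.2e-06). Septin4, a filament protein that shapes the contact of Stim1 with Orai1, rose from 32.2 ± 1.28 to 83.2 ± 2.17 TPM (SD, n = 4 each), with a log2 fold change of 1.34 (limma adjusted p = 1.2e-08). Orai2 and Orai3, the other pore genes, had log2 fold changes of 0.13 each and did not pass. After median-ratio scaling 5 genes of this list rose and 3 fell.

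Of 19 tested luminal calcium binding proteins and chaperones 9 rose and 4 fell, and by limma 0 passed the fold change threshold. The changes of those past an adjusted p of 0.05 ran from -0.51 (Rcn2) to 0.76 (Casq1) on the log2 scale, both named after their values were seen. After median-ratio scaling 3 rose and 9 fell. Hspa5, the chaperone BiP, went from 1480 ± 20.2 to 1368 ± 14.4 TPM, a log2 fold change of -0.11 (limma adjusted p = 0.0030), and Hsp90b1, the chaperone GRP94, from 1038 ± 17.6 to 1152 ± 26.5 TPM, a log2 fold change of 0.15 (limma adjusted p = 0.0013; SD, n = 4 each). Hsp90b1 moved about as far as the median gene and had a log2 fold change of -0.01 after median-ratio scaling (limma adjusted p = 0.74). Hspa5 had one of 0.01 after quantile normalization (limma adjusted p = 0.73). The ERSE shown in the Calr promoter was also found in 4 of 17 list members with a RefSeq promoter, namely Calr4, Canx, Hspa5 and Hsp90b1. The tested genes that carry it had log2 fold changes of -0.06 (Calr), -0.14 (Canx), -0.11 (Hspa5) and 0.15 (Hsp90b1).

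Of 7 tested genes listed as junctional proteins of the store, not all of them tethers, 5 rose and 1 fell, or 0 fell by limma without Lv-Ctrl replicate 2. Jph2, a tether known from muscle, rose from 68.6 ± 4.42 to 116 ± 4.22 TPM, and Fkbp1a, a partner of ryanodine receptors, from 203 ± 10.5 to 258 ± 6.06 TPM (SD, n = 4 each). Genes of calcium transfer to mitochondria rose for 5 of 17 and fell for 2, and after median-ratio scaling 2 rose and 7 fell. Vdac3, a pore of the outer mitochondrial membrane, had 157 ± 5.53 and 162 ± 4.67 TPM, and Hspa9, which links it to the store, had 169 ± 18.3 and 174 ± 10.2 TPM (SD, n = 4 each), and neither passed.

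**Figure D4:**
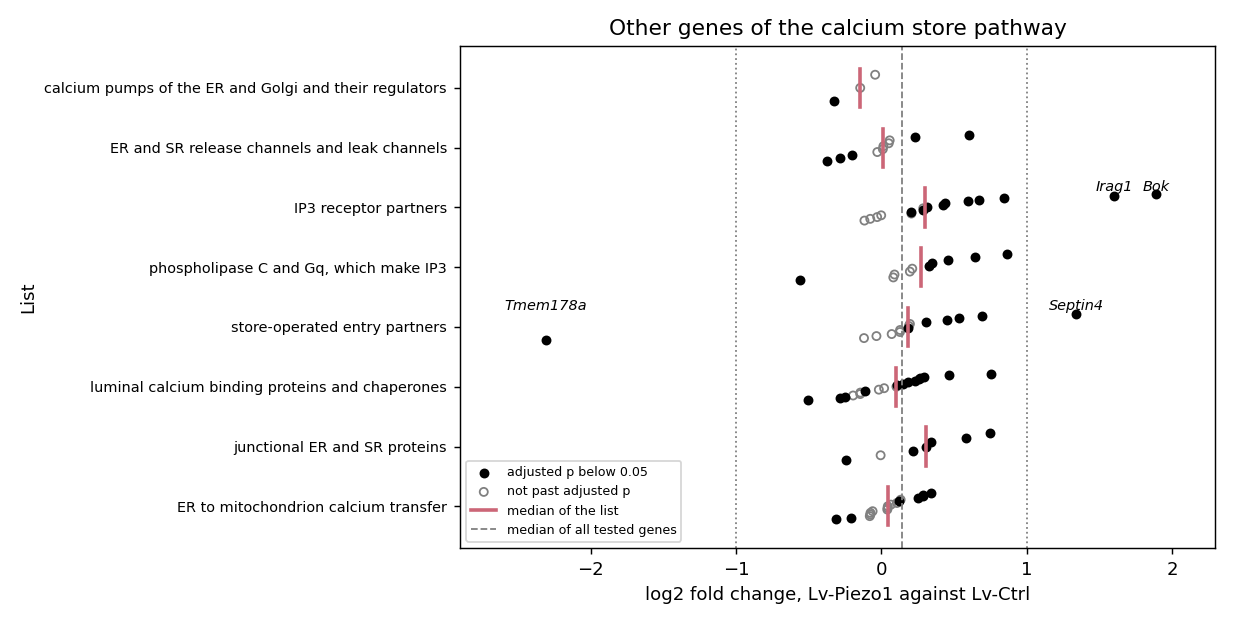
log2 fold change of each tested gene in the 8 pathway lists on the deposited TPM, with filled points at an adjusted p below 0.05, open points for the rest, a red bar at the median of the list and a dashed line at the median of all tested genes (0.14). Bok, Irag1, Septin4 and Tmem178a lie beyond the dotted lines at -1 and 1, and the list medians lie between -0.15 and 0.31.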

How the data were processed

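RNA-seq covered 8 AFC samples under CMS, 4 per vector. Per the study's methods, the authors cleaned the reads, aligned them to the rat reference using HISAT2 and assembled transcripts using StringTie. The deposited values are TPM per gene, rounded to 2 decimals, and the mean of each group. The study's methods name FPKM, and how TPM was made is not given in the sources used here. The submitters' processing notes list the mouse build mm10 and DESeq2, while the gene identifiers are those of rat. TPM is no count, so no count model was fitted, and the depth is unknown.

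Columns were matched to samples through the sample descriptions. Genes with a mean of at least 1 TPM over all samples (13103) were compared as log2(TPM + 1), a scale that understates changes of low genes, with limma 3.58.1 in R 4.3.3 (empirical Bayes with a trend, Benjamini-Hochberg adjustment over all tested genes). The fit was tested on simulated data. Ratios between members were compared in Python 3.11.15 by exact permutation (two-sided, 70 relabelings). Alternatives were a pseudocount of 0.1, no filter, a minimum mean of 5 TPM, scaling by median ratios, quantile normalization, TPM without 13 mitochondrially encoded genes, no trend, the replicate number as a block, and leaving out each sample. The members, the 8 pathway lists and the 6 marker lists were chosen with earlier results of these data known. Named genes are the members, Piezo1, in each list up to 2 called rises and 2 called falls with a minimum mean of 5 TPM whose groups did not overlap, or else the 2 genes with the highest TPM, and for Atp2a2 and Casq2 the 3 genes with the highest correlation. Other genes named in the text were chosen with their values known. The p-values from limma set the difference between groups against the spread between samples. Tissue of 8 rats was pooled for each isolation, so the spread between animals was not measured.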

Additional observations from a re-analysis of the deposited data

Results flagged for a closer look

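Casq2 in Lv-Piezo1 replicate 1, at 24.9 TPM, lay apart from the other samples labelled Lv-Piezo1, which had 23.8, 23.8 and 23.99 TPM. The gap took up 0.838 of the range of the group. It was the only sample set apart in this way among 32 groups of 4 values (the members, Piezo1 and the 5 ratios in each group). Among so many groups chance alone can set a sample apart, and the number to expect was not worked out. Without this sample the log2 fold change of Casq2 was 2.19.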

How the results depend on the processing

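Atp2a2, Itpr1, Casq2 and Piezo1 kept their direction and an adjusted p below 0.05 from limma under all 16 alternatives. The median log2 fold change of the tested members went from 0.26 to 0.11 after median-ratio scaling and to 0.0863 after quantile normalization, and the number of members past an adjusted p of 0.05 went from 6 to 4 and to 3. That number was 7 with no filter on low TPM, where Atp2a3 was added, and 7 without mitochondrially encoded genes, where Calr was added. Both scalings remove the shift of all genes by construction. Stim2 turned to -0.017 and -0.0397 under these scalings in that order, and Itpr2 to -0.0856 after quantile normalization, neither past the threshold in any fit. The share of higher genes among all called genes was 64.1% as deposited, 52.3% with median-ratio scaling and 48.8% with quantile normalization. Called genes in all numbered 1005, 628 at a minimum mean of 5 TPM and 1438 with a pseudocount of 0.1. When each sample was left out in turn, the number of members past the fold change threshold was 2 to 3, and that past an adjusted p alone 5 to 6. The pathway genes past the fold change threshold numbered 4 in each of these fits and 6 with a pseudocount of 0.1. No pairing by replicate number was visible: the correlation of deviations between same-numbered samples was -0.0576 to -0.0124 across genes. For other pairs it was -0.0867 to 0.112. With 4 samples a group this cannot show whether same-numbered samples came from 1 isolation. With the replicate block, 2 members passed the fold change threshold and 6 an adjusted p of 0.05, as without it, and 1004 in place of 1005 of all genes were called. The study's methods describe at most 4 independent repeats, each being the experiments on cells of 1 isolation under different treatments. By that account both groups share their isolations, although the labels do not state this or which samples belong together. An exact test that kept such pairs would have fewer relabelings and could not reach a p as low as that of the unpaired test. The main fit and the exact permutation tests treat the 8 samples as independent and leave such sharing out. TPM gives no depth, so the precision rests on 4 samples a group.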

Other observations

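The genes most like Atp2a2 over the 8 samples, by the correlation of log2(TPM + 1), were Antxr1, a collagen-binding receptor (Pearson r = 0.9995), Cemip, which degrades hyaluronan (r = 0.9995), and Clmp, an adhesion molecule (r = 0.9995). Antxr1 went from 114 ± 12.1 to 54.8 ± 3.40 TPM, Cemip from 411 ± 86.8 to 65.5 ± 10.0 TPM and Clmp from 174 ± 12.0 to 107 ± 5.45 TPM (SD, n = 4 each). The genes most like Casq2 were Afap1l2, an actin filament associated protein (r = 0.9987), Septin4 (r = 0.9987) and Nes, the intermediate filament nestin (r = 0.9984). Afap1l2 went from 8.41 ± 0.631 to 45.9 ± 1.58 TPM and Nes from 0.84 ± 0.12 to 5.92 ± 0.383 TPM (SD, n = 4 each). The samples form 2 separate groups, so these values mostly describe the difference between the groups, and 159 genes had an r above 0.99 with Atp2a2 and 333 with Casq2.

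Among the markers of the annulus fibrosus and of fibroblasts, 5 of 12 tested genes rose and 6 fell. Fbln1, an extracellular glycoprotein, fell from 336 ± 15.2 to 84.6 ± 2.50 TPM and Dcn, the proteoglycan decorin, from 1456 ± 69.3 to 519 ± 14.9 TPM (SD, n = 4 each). Among the rises were Col1a1, from 3282 ± 137 to 5835 ± 103 TPM, and Scx, from 30.1 ± 5.05 to 56.8 ± 10.5 TPM (SD, n = 4 each). Among chondrocyte and nucleus pulposus markers, Acan, the proteoglycan aggrecan, rose from 31.6 ± 2.95 to 47.1 ± 1.82 TPM and Hapln1, its link protein, fell from 10.7 ± 1.16 to 7.73 ± 0.115 TPM (SD, n = 4 each), with 6 of 10 listed genes below a mean of 1 TPM. Of 4 tested, 2 rose and 1 fell. Comp rose from 0.738 ± 0.216 to 2.86 ± 0.221 TPM (SD, n = 4 each, log2 fold change 1.16, limma adjusted p = 3.4e-05), and Sox9 did not pass. After quantile normalization 0 of the 4 passed the fold change threshold. Of 10 macrophage and blood cell markers with a row, 8 lay below a mean of 1 TPM, among them Ptprc, Csf1r and Itgam. The other tested marker, Cd14, had 20.9 ± 0.324 and 25.8 ± 1.91 TPM (SD, n = 4 each, log2 fold change 0.29, limma adjusted p = 0.0015) and lost its call after both scalings. Cd68, a lysosomal protein, went from 0.955 ± 0.899 to 12.3 ± 0.901 TPM (SD, n = 4 each, log2 fold change 2.88, limma adjusted p = 2.7e-05).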
